A study of Mus musculus with 15 samples.

Results

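Cytochrome P450 genes encode haem-containing monooxygenases, and 39 of them were described here in perigonadal fat of mice. The members were the protein-coding genes whose symbol starts with Cyp and a digit, leaving out Cyp51, of which the deposited table held 98. The 39 had at least 10 counts in at least 4 libraries. Of the other 59 genes, 44 had fewer counts and 15 had none in any library. The gene just inside that limit was Cyp17a1, with 10 counts or more in 4 libraries and a median of 4 counts. Just outside it were 6 genes that reached 10 counts in 2 libraries, with median counts between 0 and 4.

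All mice were C57BL/6 and 14 weeks old, and diets began at 8 weeks of age. The weight loss group (SWAP) ate a 60% high-fat diet for 5 weeks and was then returned to chow for 1 week, the obese group (HFD) ate the high-fat diet, and the lean group (RD) ate chow. Poly(A) RNA of the fat pads was sequenced from 4 weight loss, 5 obese and 5 lean libraries, which held between 13924770 and 33807887 counts each. Weight loss replicate 5 was left out, since its 230 counts included 1 on a P450 gene. The series calls the samples independent, and neither the labels nor the design text gives the sex of the mice or says that a sample was 1 mouse. Levels are CPM, that is counts over the TMM-scaled library size, and are given as mean ± SD.

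P450 enzymes bind molecular oxygen at a haem iron and insert 1 of its atoms into a substrate. Those of the endoplasmic reticulum take electrons from the reductase Por, and those of mitochondria from ferredoxin. The first families of the nomenclature are known for oxidising drugs, toxicants and fatty acids, the fourth for hydroxylating the end of fatty acid chains, and the rest for making or breaking down sterols, vitamin D, retinoic acid and steroid hormones. Many are best known from liver, and fat also expresses some of them.

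The tissue label was checked against marker genes. Adipoq, the adiponectin gene of fat cells, averaged 2474 CPM in weight loss fat, 2177 CPM in obese fat and 1835 CPM in lean fat. The 6 hepatocyte markers summed to between 8.24 and 27.8 CPM in every library, with Alb at 8.72, 11.6 and 9.38 CPM in the weight loss, obese and lean groups. The 20 epididymal markers, of which 17 passed the filter on low counts, summed to between 4.12 and 74.0 CPM in weight loss, between 14.9 and 9299 CPM in obese and between 5.51 and 3760 CPM in lean libraries. Obese replicates 2, 5 and 4 and lean replicate 1 held the highest sums, at 9299, 7043, 3470 and 3760 CPM. All 7 general macrophage markers were tested, and their sum was 876 ± 294 CPM in weight loss, 1039 ± 174 CPM in obese and 502 ± 164 CPM in lean fat.

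Cyp2e1 stood above every other P450 gene. Per kilobase of exon it averaged 1655 CPM in weight loss fat, 938 CPM in obese fat and 2529 CPM in lean fat, which placed it 15th, 25th and 5th among 14913 genes with a known length. It held 81.4 ± 7.5% of the summed CPM of the 39 genes in weight loss fat, 75.3 ± 5.6% in obese fat and 88.9 ± 1.4% in lean fat (SD, n = 4, 5 and 5). Next by level per kilobase over all libraries came Cyp4b1 at 53.6, Cyp27a1 at 34.5, Cyp2f2 at 25.9 and Cyp4v3 at 23.2 CPM per kilobase. Cyp4f16 and Cyp2j6 lay side by side at 10.60 and 10.61 CPM per kilobase. The other end of the order was formed by Cyp2j5 at 0.123, Cyp4f14 at 0.190 and Cyp26a1 at 0.212 CPM per kilobase.

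**Figure D1:**
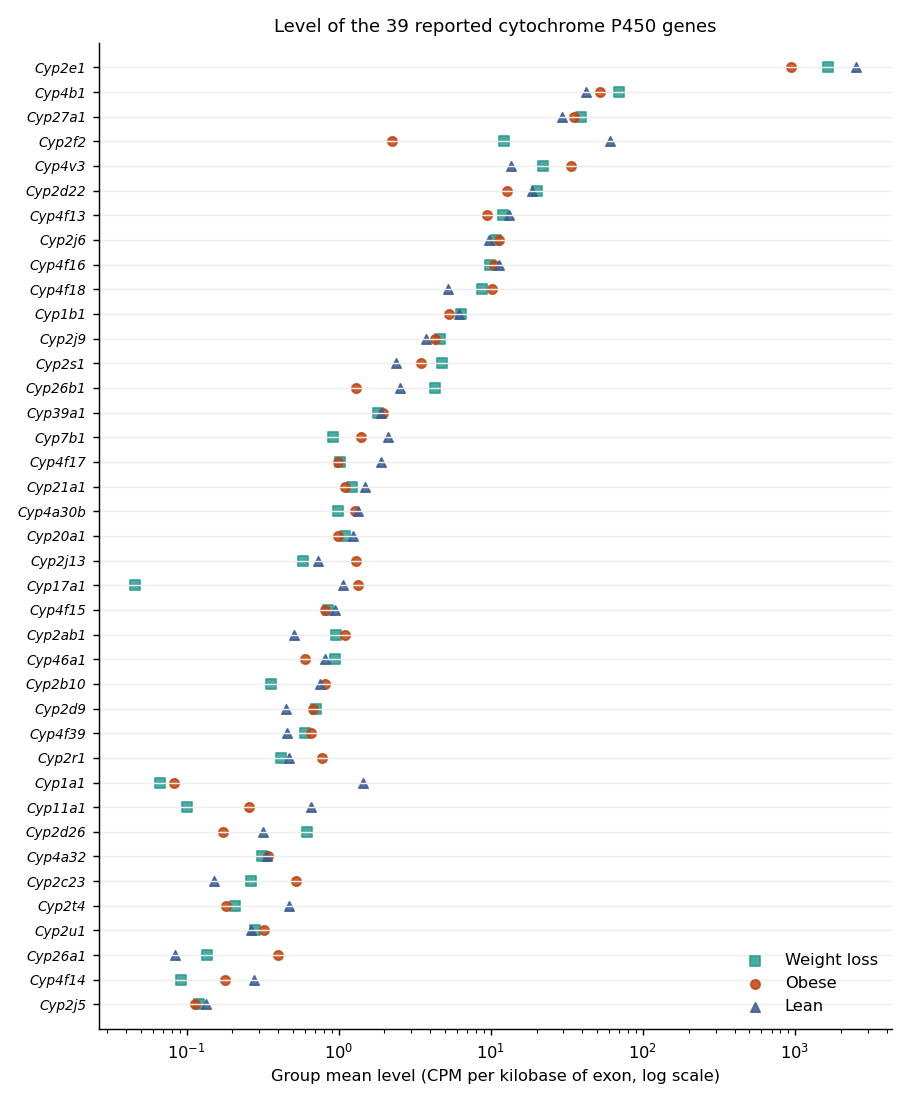
Group mean level of the 39 P450 genes in CPM per kilobase of exon, on a log axis, ordered by the mean over 14 libraries. Squares are weight loss, circles obese and triangles lean fat, and Cyp2e1 stands far to the right of the others in all 3 groups.

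Several rows of neighbouring P450 genes were absent from the 39. Of the 59 genes of the first 3 families, 17 were kept, and none of the 14 Cyp2c genes in 1 row on chromosome 19 or the 8 Cyp3a genes in 1 row on chromosome 5 was kept. Of the 20 Cyp4 genes 11 were kept, 6 of them from a row of 8 on chromosome 17. Neighbouring P450 genes can be alike in sequence, and how the authors' counting shared reads between them is not given in the sources used here. By the transcripts of GENCODE M21, 16 of the 39 genes shared no stretch of 50 bases with another gene, 18 shared under 10% of their stretches, and 5 shared more, with Cyp4a32 (43.8%), Cyp2d9 (21.8%) and Cyp21a1 (21.3%) at the top. The 5 are uncertain for that reason, and none of them passed a test below.

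Each comparison was tested across all genes with edgeR's quasi-likelihood test, two-sided, with Benjamini-Hochberg adjustment over 15208 genes and a threshold of 0.05. Fold changes are log2 values ± standard error. Of the 39 genes 38 were tested, and Cyp2j5 fell under the filter. In obese against lean fat 7 of the 38 passed (18.4%), 1 higher (2.63%) and 6 lower (15.8%), while 9.71% of all tested genes passed, 5.86% higher and 3.85% lower. Among the 6 was Cyp1a1, which met the count limit of the 39 only through the lean libraries, where it was high. In weight loss against obese fat 1 gene passed (2.63%), higher, where 1.62% of all genes passed, 0.736% higher and 0.881% lower. In weight loss against lean fat none passed with edgeR, where 0.0329% of all genes did. DESeq2's Wald test called 3 there, Cyp1a1, Cyp2s1 and Cyp4v3, and its share of all genes is not given here. Of these, Cyp1a1 is again the gene kept through the lean libraries. An unadjusted edgeR p under 0.05 was found in this comparison for 10 of the 38, beside 1739 of all 15208 genes. The median log2 value of the 38 was -0.02, -0.07 and -0.07 in the 3 comparisons in that order, beside -0.02, 0.02 and 0.00 over all genes. The comparisons share libraries and are therefore not independent of each other.

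**Figure D2:**
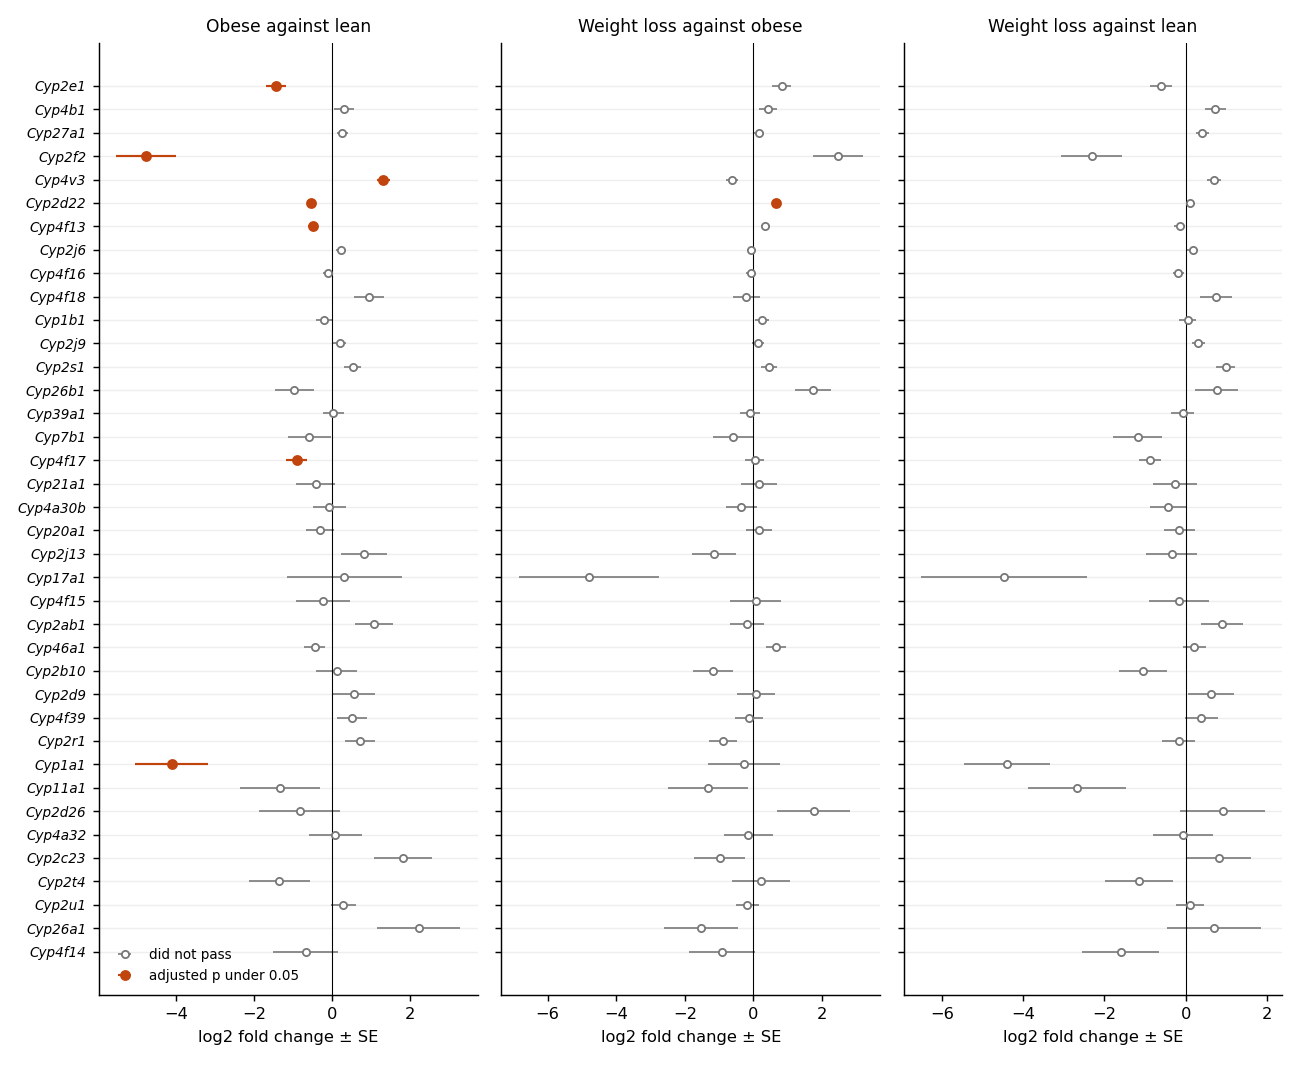
Log2 fold change ± SE of the 38 tested P450 genes in each comparison, ordered by mean level per kilobase. Filled points passed an adjusted p of 0.05, with 7 in obese against lean, 1 in weight loss against obese and none in weight loss against lean fat.

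Cyp2e1, which oxidises ethanol, acetone and fatty acids, was lower in obese fat. It stood at 2020, 1486, 1979, 1645 and 2995 CPM in the obese libraries, against 3929, 6581, 5539, 5415 and 5822 CPM in the lean libraries. The highest obese library lay below the lowest lean library, and the fold change was -1.43 ± 0.26 on the log2 scale, a level 2.69-fold lower in obese fat (edgeR adjusted p = 0.00358). In a bulk sample fewer cells of a type and less RNA per cell cannot be told apart. The 7 fat cell markers summed to 20412 ± 2670 CPM in obese and 26331 ± 4101 CPM in lean fat, and the markers did not move together. Of the 7, Lep (leptin) was higher (1.39 ± 0.16, edgeR adjusted p = 0.000173) and Cfd (adipsin) lower in obese fat (-1.45 ± 0.26, adjusted p = 0.00334), and the others did not pass. Cfd alone averaged 3686 CPM in obese fat and 10097 CPM in lean fat, a gap wider than that between the sums. The part of fat cell content in the Cyp2e1 difference was not tested. Weight loss libraries held 2225, 3456, 2621 and 5982 CPM of Cyp2e1, so that replicates 1 and 3 lay inside the obese range, replicate 4 inside the lean range and replicate 2 between both. Against obese fat that gave 0.82 ± 0.27 (adjusted p = 0.157), and against lean fat -0.61 ± 0.27 (adjusted p = 0.414), and neither passed edgeR's test.

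Cyp2f2, known for oxidising naphthalene in mouse airway and liver, was lower in obese fat by a wide margin. Its level was 6.96, 2.73, 5.91, 4.56 and 2.43 CPM in the obese libraries, against 49.0, 165, 95.1, 219 and 85.3 CPM in the lean libraries. All 5 obese libraries lay under all 5 lean libraries, though the lean libraries themselves spanned 4.47-fold. The log2 fold change was -4.78 ± 0.77, or 27.4-fold lower in obese fat (edgeR adjusted p = 0.00174). Markers of airway club cells were near 0, with Scgb1a1 at 0.757 CPM in obese and 1.27 CPM in lean fat. After weight loss the libraries spread widely, at 2.77, 27.3, 4.57 and 63.9 CPM, a span of 23.1-fold. Replicates 1 and 3 were again within the obese range, replicate 4 within the lean range and replicate 2 between the ranges, the same order as for Cyp2e1. The log2 value was 2.46 ± 0.73 against obese fat (adjusted p = 0.117) and -2.32 ± 0.74 against lean fat (adjusted p = 0.262), neither passing edgeR's test. With 1 library left out, the edgeR adjusted p against obese fat ran from 0.0495, without weight loss replicate 1, to 0.324. DESeq2's Wald test gave an adjusted p of 0.0369.

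Cyp2d22, a drug-oxidising enzyme of the second family, was the P450 gene that passed in both comparisons with obese fat. Its weight loss libraries held 88.1, 81.0, 76.9 and 67.4 CPM, its obese libraries 53.8, 54.6, 47.3, 47.2 and 46.4 CPM, and its lean libraries 72.8, 74.0, 71.9, 64.1 and 81.1 CPM. No obese library reached any library of the other groups, and weight loss and lean ranges overlapped. It was lower in obese than in lean fat by -0.55 ± 0.10 (edgeR adjusted p = 0.00374) and higher after weight loss than in obese fat by 0.65 ± 0.10 (adjusted p = 0.00456), a 1.57-fold level. Between weight loss and lean fat the log2 value was 0.11 ± 0.10 (adjusted p = 0.726). With the epididymal level as a covariate the log2 value between weight loss and obese fat was 0.61 ± 0.14 (edgeR adjusted p = 0.14). Without the 4 libraries highest in epididymal markers it was 0.63 ± 0.16 (edgeR adjusted p = 0.326). Both values were near that of the main fit, with larger standard errors. Of its 50-base stretches 4.13% also occur in other genes.

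Cyp1a1 and Cyp1b1 are both known targets of the aryl hydrocarbon receptor, a sensor of dioxins and of plant compounds in food. They are set side by side because 1 passed and the other did not. The sequences run 5′ to 3′ from 250 bases before to 50 bases after the listed start site (RefSeq, GRCm38.p6), and capitals mark the receptor's core motif GCGTG, or CACGC where it lies on the opposite strand. Cyp1a1 is at chr9:57697363-57697662 on the plus strand and Cyp1b1 at chr17:79715012-79715311 on the minus strand.
Cyp1a1: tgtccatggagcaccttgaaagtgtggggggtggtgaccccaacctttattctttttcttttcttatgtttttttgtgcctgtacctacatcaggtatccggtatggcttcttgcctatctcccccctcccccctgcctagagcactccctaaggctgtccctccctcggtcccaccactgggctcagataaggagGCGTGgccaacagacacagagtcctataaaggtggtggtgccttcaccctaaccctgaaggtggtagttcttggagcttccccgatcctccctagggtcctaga
Cyp1b1: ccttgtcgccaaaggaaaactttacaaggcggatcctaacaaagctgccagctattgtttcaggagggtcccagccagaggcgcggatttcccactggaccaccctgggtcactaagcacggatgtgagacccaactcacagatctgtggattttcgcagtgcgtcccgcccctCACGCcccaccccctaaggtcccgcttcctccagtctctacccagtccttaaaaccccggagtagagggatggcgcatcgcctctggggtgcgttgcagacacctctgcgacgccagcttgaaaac
Each window held 1 match, at position -54 from the start site in Cyp1a1 and at position -76 in Cyp1b1. The motif is common: searched on both strands, it was in 14 of 36 windows of the reported P450 genes (38.9%) and in 32.4% of 32851 windows of all genes. The 36 windows covered 31 of the 39 genes, and Cyp4f14 and Cyp2j13 had several that overlap.

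Counts of Cyp1a1 were low in every library. The weight loss libraries had 6, 7, 0 and 1 counts (0.339, 0.356, 0 and 0.0534 CPM), the obese libraries 0, 6, 0, 16 and 4 counts (0, 0.174, 0, 0.838 and 0.141 CPM), and the lean libraries 39, 56, 60, 127 and 45 counts (1.74, 3.97, 2.71, 8.51 and 3.19 CPM). Every lean library lay above every obese and every weight loss library. Since 5 of the 6 libraries with at least 10 counts were lean, Cyp1a1 was kept through the group in which it was high. Obese against lean fat gave -4.12 ± 0.94 (edgeR adjusted p = 0.0143). Weight loss against lean fat gave a value of like size, -4.41 ± 1.07, which did not pass edgeR (adjusted p = 0.139) but had an adjusted p of 0.00124 in DESeq2's Wald test and of 0.0342 in edgeR with legacy=FALSE. Weight loss and obese fat differed by -0.29 ± 1.05 (adjusted p = 0.945). Of the stretches of Cyp1a1 3.43% also occur in Cyp1a2, its neighbour.

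Cyp1b1, which oxidises oestradiol and polycyclic hydrocarbons, had far more reads and overlapping groups. It averaged 37.2 ± 6.3 CPM in weight loss (SD, n = 4), 31.2 ± 8.6 CPM in obese (SD, n = 5) and 36.0 ± 7.1 CPM in lean fat (SD, n = 5), with log2 values of -0.21 ± 0.19 for obese against lean (adjusted p = 0.572) and 0.26 ± 0.21 for weight loss against obese fat (adjusted p = 0.65). The receptor gene Ahr itself averaged 15.3 ± 4.6, 9.85 ± 1.6 and 13.0 ± 3.9 CPM in the weight loss, obese and lean groups, and its partner Arnt 56.9 ± 9.2, 48.4 ± 9.3 and 49.8 ± 5.6 CPM, with edgeR adjusted p of 0.235 or more for both in the 3 comparisons. Other genes known to follow the receptor, Tiparp, Nqo1 and Ahrr, did not pass in any comparison (edgeR adjusted p of 0.172 or more). Their log2 values were 0.40, -0.15 and 1.89 in obese against lean fat and 0.19, -0.35 and 1.87 in weight loss against lean fat. Ahrr was scarce, at 0.506, 0.514 and 0.140 CPM in weight loss, obese and lean fat.

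The windows at the start of Cyp2e1 and Cyp2f2, both lower in obese than in lean fat, are shown for comparison. Cyp2e1 is at chr7:140763569-140763868 and Cyp2f2 at chr7:27119705-27120004, both on the plus strand of GRCm38.p6 (RefSeq).
Cyp2e1: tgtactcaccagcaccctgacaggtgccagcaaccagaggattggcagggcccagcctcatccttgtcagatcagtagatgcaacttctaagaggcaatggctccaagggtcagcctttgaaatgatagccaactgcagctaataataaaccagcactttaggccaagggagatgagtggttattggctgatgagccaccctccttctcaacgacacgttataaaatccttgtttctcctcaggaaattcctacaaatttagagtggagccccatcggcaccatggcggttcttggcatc
Cyp2f2: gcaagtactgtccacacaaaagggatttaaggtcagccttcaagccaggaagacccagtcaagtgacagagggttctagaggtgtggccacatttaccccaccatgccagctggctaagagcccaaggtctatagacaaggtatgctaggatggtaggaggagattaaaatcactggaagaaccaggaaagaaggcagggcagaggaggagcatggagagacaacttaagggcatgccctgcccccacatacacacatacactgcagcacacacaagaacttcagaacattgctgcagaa
Neither held GCGTG, the E-box CACGTG or the D-box TTANGNAA on either strand. The TATA box TATAAA was at position -31 in Cyp2e1 and at position -30 in Cyp1a1. On either strand and at any position, its letters were in 22.2% of the P450 windows and 13.6% of all windows. Those shares include matches far from these positions, as at -139 in Cyp26b1 and, on the opposite strand, at -128 in Cyp2j5. The E-box and D-box were in 5.56% and 16.7% of the P450 windows and in 7.15% and 11.5% of all windows. No motif contains another, and N stands for any base.

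Other genes of the first families had closer groups. Cyp2s1, a P450 of epithelia, averaged 23.4 ± 4.7 CPM in weight loss, 17.1 ± 4.8 CPM in obese and 11.8 ± 3.4 CPM in lean fat. Its weight loss libraries began at 19.4 CPM and its lean libraries ended at 16.0 CPM, so these groups did not overlap, and the log2 value of 0.98 ± 0.24 did not pass edgeR (adjusted p = 0.141) and passed DESeq2 (adjusted p = 0.0141). Cyp2j6, of the arachidonic acid epoxygenases, stood at 39.2 ± 5.5, 40.9 ± 3.4 and 34.8 ± 5.2 CPM in weight loss, obese and lean fat and Cyp2u1 at 1.48, 1.68 and 1.38 CPM, with overlapping ranges in each comparison. Of the 16 tested members of families 1 to 3, 4 were lower (25%, Cyp1a1 among them) and none higher in obese than in lean fat (edgeR). Of all tested genes 3.85% were lower and 5.86% higher. After weight loss 1 of the 16 was higher than in obese fat (6.25%, beside 0.736% of all genes). None of them passed between weight loss and lean fat, where 0.0329% of all genes did.

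**Figure D3:**
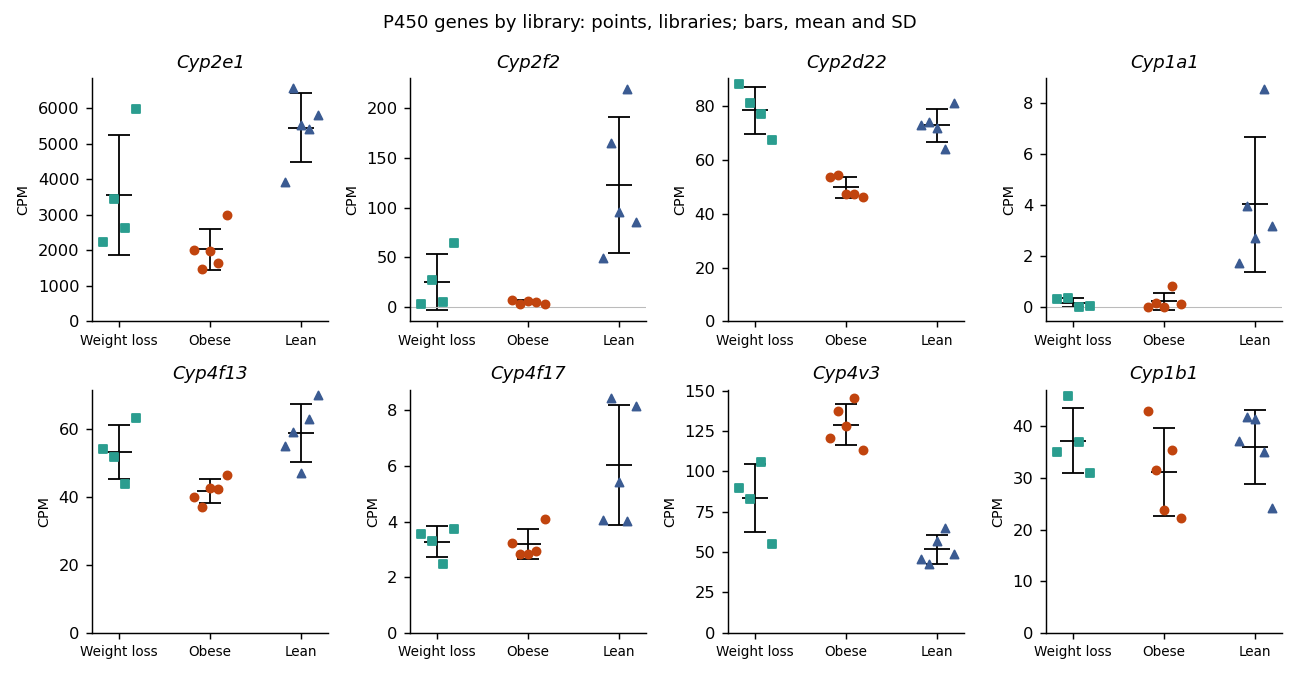
CPM by library of the 7 P450 genes that passed in obese against lean fat, with Cyp1b1 for comparison. Points are libraries (4 weight loss, 5 obese, 5 lean), bars give mean and SD, and all 5 lean libraries of Cyp1a1 lie above all libraries of the other groups.

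Cyp4v3 was the P450 gene that was higher in obese fat, and its human counterpart is a fatty acid hydroxylase lost in a crystalline retinal dystrophy. The obese libraries held 121, 137, 128, 145 and 113 CPM, against 45.7, 42.4, 56.5, 65.0 and 48.9 CPM in the lean libraries. The groups did not overlap, and the difference was 1.32 ± 0.16, or 2.49-fold higher in obese fat (edgeR adjusted p = 0.000259). It passed in all 29 alternatives tried, with log2 values between 1.24 and 1.39 when 1 library was left out. Of the 50-base stretches of Cyp4v3 7.02% also occur in Gm45753. After weight loss the libraries held 89.8, 83.0, 106 and 54.9 CPM, all below the lowest obese library and, but for replicate 4, above the highest lean one. The log2 value against obese fat was -0.63 ± 0.17 (edgeR adjusted p = 0.0907, DESeq2 adjusted p = 0.0129) and against lean fat 0.69 ± 0.17 (edgeR adjusted p = 0.141, DESeq2 adjusted p = 0.0188). With 1 library left out, the edgeR adjusted p against lean fat ran from 0.0168, without weight loss replicate 4, to 0.546. Of the 7 macrophage markers 6 (85.7%) were also higher in obese than in lean fat, as were 3 of 5 progenitor markers (60%) and 5.86% of all tested genes (edgeR). Whether those cells took part in the Cyp4v3 difference was not tested.

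Cyp4f13 and Cyp4f17 belong to a subfamily known for hydroxylating leukotrienes and long fatty acids, and both were lower in obese fat. Cyp4f13 stood at 40.0, 37.2, 42.7, 42.3 and 46.6 CPM in the obese libraries and at 55.1, 59.2, 47.1, 63.1 and 70.0 CPM in the lean libraries, just short of overlapping. Its log2 value was -0.50 ± 0.12 (edgeR adjusted p = 0.0223), and leaving out obese replicate 1 gave an adjusted p of 0.0506, obese replicate 2 gave 0.0638 and lean replicate 5 gave 0.0588. Cyp4f17 held 3.23, 2.84, 2.82, 2.93 and 4.09 CPM in the obese libraries and 4.06, 8.44, 5.42, 4.02 and 8.16 CPM in the lean libraries. The obese group sat low, with replicate 5 just above the lowest 2 lean libraries, and the log2 value was -0.91 ± 0.26 (edgeR adjusted p = 0.0381). That adjusted p lay between 0.0503 and 0.0978 without any 1 of obese replicates 1 to 4, lean replicates 2 or 5 or weight loss replicate 2, and it was 0.0573 with no filter on low counts and 0.0554 with limma-voom. After weight loss Cyp4f13 averaged 53.2 ± 8.0 CPM and Cyp4f17 3.27 ± 0.55 CPM, with edgeR adjusted p of 0.225 and 0.974 against obese fat.

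Cyp4b1, which oxidises short fatty acids and plant toxins, did not pass in any comparison, yet its weight loss libraries differed widely. They held 223, 116, 221 and 71.1 CPM, where obese libraries lay between 111 and 129.9 CPM and lean libraries between 70.5 and 116 CPM. Replicates 1 and 3 stood above every other library, and they are the same replicates in which Cyp2e1 and Cyp2f2 were lowest. Without weight loss replicate 4 the difference from lean fat had an edgeR adjusted p of 0.0498, against 0.314 with it. Leaving out other single libraries took it as high as 0.818. The marker sums of the weight loss libraries differed too. In replicates 1 to 4 macrophage markers summed to 1138, 478, 1049 and 840 CPM, progenitor markers to 1029, 655, 928 and 654 CPM, endothelial markers to 833, 551, 755 and 404 CPM, and fat cell markers to 22121, 22332, 19750 and 31972 CPM. Their part in the spread of the P450 genes was not tested.

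**Figure D4:**
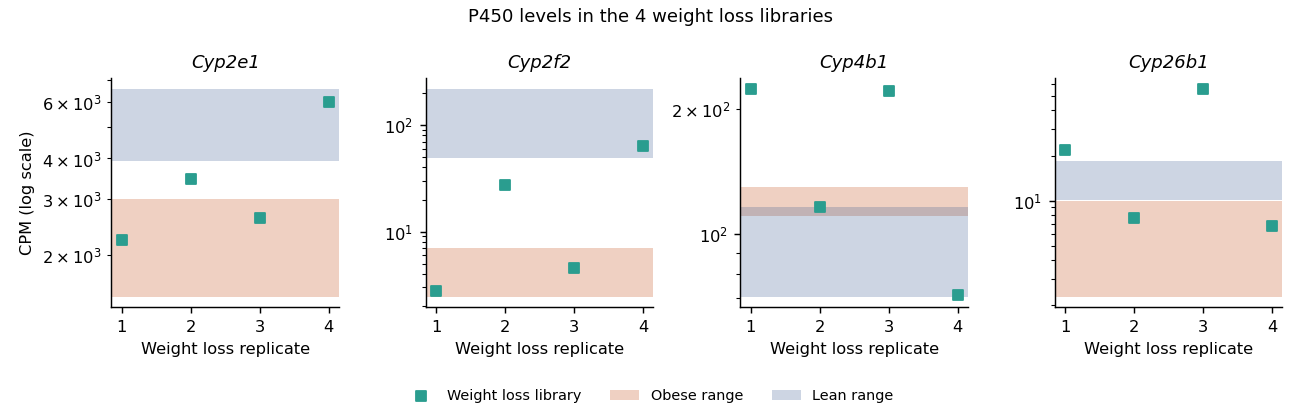
CPM on a log axis of 4 P450 genes in each weight loss library (squares), with the range of the obese libraries in orange and of the lean libraries in blue. Replicates 1 and 3 are lowest for Cyp2e1 and Cyp2f2 and highest for Cyp4b1 and Cyp26b1.

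Of the other Cyp4 genes, Cyp4f16 averaged 30.5 ± 4.4, 32.1 ± 4.0 and 34.6 ± 3.8 CPM in weight loss, obese and lean fat, with overlapping ranges. Of the 11 Cyp4 genes tested 1 was higher (9.09%) and 2 were lower (18.2%) in obese than in lean fat (edgeR), beside 5.86% and 3.85% of all genes. None of them passed in the comparisons of weight loss fat with obese or lean fat, where 1.62% and 0.0329% of all genes did.

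With edgeR none of the 4 sterol, 1 vitamin D, 3 steroid hormone and 2 retinoic acid genes passed in any comparison, nor did Cyp20a1, whose substrate is unknown. Of these 11 genes 0 had an unadjusted p under 0.05 in obese against lean fat, 4 in weight loss against obese fat (Cyp26b1, Cyp17a1, Cyp46a1 and Cyp2r1) and 3 in weight loss against lean fat (Cyp27a1, Cyp17a1 and Cyp11a1). Among all 15208 tested genes 3766, 2174 and 1739 did, in the same order of comparisons. DESeq2 called Cyp26b1 in weight loss against obese fat. Cyp27a1, the mitochondrial enzyme that opens the acidic route of bile acid synthesis, averaged 85.6 ± 17 CPM in weight loss (SD, n = 4), 77.1 ± 8.6 CPM in obese (SD, n = 5) and 64.2 ± 11 CPM in lean fat (SD, n = 5). Cyp7b1, which acts on the oxysterols of that route, stood at 2.00 ± 1.2, 3.03 ± 0.73 and 4.55 ± 4.0 CPM in the same order. In Cyp2r1, a vitamin D hydroxylase, the averages were 0.886, 1.65 and 1.00 CPM with overlapping ranges.

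Cyp26b1 breaks down retinoic acid. It held 21.9, 7.68, 55.7 and 6.78 CPM in the weight loss libraries, 8.92, 9.92, 2.28, 6.65 and 6.77 CPM in the obese libraries, and 12.4, 10.2, 11.8, 18.5 and 14.9 CPM in the lean libraries. The highest obese library lay below the lowest lean library, and weight loss replicates 1 and 3 lay above both groups. The log2 values were -0.97 ± 0.51 for obese against lean (edgeR adjusted p = 0.262) and 1.73 ± 0.53 for weight loss against obese fat (edgeR adjusted p = 0.133, DESeq2 adjusted p = 0.0188). Counting ranges alone, 7 of the 38 P450 genes had obese and lean libraries that did not overlap (18.4%), 1 higher and 6 lower in obese fat, beside 10.3% of all genes, 6.04% higher and 4.31% lower. Between weight loss and obese fat 2 did (5.26%), 1 in each direction, beside 6.65% of all genes, 3.38% higher and 3.27% lower. Likewise, between weight loss and lean fat 3 did (7.89%), 1 higher and 2 lower, beside 2.29% of all genes, 1.58% higher and 0.704% lower. The lower genes in both comparisons with lean fat include Cyp1a1, which was kept through the lean libraries.

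Steroid hormone genes were high in single libraries. Cyp11a1, which cuts the side chain of cholesterol, was at 0.226 to 0.723 CPM after weight loss and reached 2.99 CPM in obese replicate 1 and 12.8 CPM in lean replicate 5. Cyp17a1, which acts further along that pathway, reached 17.4 CPM in obese replicate 4, 9.08 CPM in lean replicate 5 and 5.40 CPM in lean replicate 1, and 1.03 CPM or less elsewhere. The 5 markers of steroid-making gonadal and adrenal cells summed to 190 CPM in lean replicate 5 and to between 6.46 and 22.7 CPM in each of the other 13 libraries, and Insl3 of Leydig cells was at 156 CPM in that library. Cyp19a1, the aromatase gene, had at most 9 counts in a library and was not kept. Cyp2j13 was highest in obese replicate 4 (16.7 CPM) and lean replicate 1 (8.38 CPM), and Cyp4a12a, not kept, had 105.5 counts in obese replicate 4, 50.9 in lean replicate 1 and 0 in the others. Both belong to the 4 libraries with the highest epididymal marker sums, whose part in these levels was not tested.

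The other genes of P450 metabolism were described by lists of their roles. For comparison, 5.86% of all tested genes were higher and 3.85% lower in obese than in lean fat (edgeR). After weight loss 0.736% were higher and 0.881% lower than in obese fat. Of electron donors and binding partners 2 of 10 were higher (20%) and 1 lower (10%) in obese than in lean fat (edgeR). Por, the main electron donor, averaged 591 ± 70 CPM in weight loss, 475 ± 72 CPM in obese and 676 ± 170 CPM in lean fat and did not pass (adjusted p = 0.0528 for obese against lean). Cyb5b, a cytochrome of the outer mitochondrial membrane, was higher in obese than in lean fat by 0.49 ± 0.14 (adjusted p = 0.0432), and lower after weight loss than in obese fat by -0.87 ± 0.16 (adjusted p = 0.0101). Of haem synthesis 1 of 7 tested genes, Ppox, was lower in obese fat, and of 14 tested sensors and regulators none passed edgeR in any comparison.

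Of 14 tested epoxide and conjugation enzymes 3 were lower in obese than in lean fat (21.4%, beside 3.85% of all genes). After weight loss 2 were higher than in obese fat (14.3%, beside 0.736% of all genes, edgeR). Ephx2, the hydrolase of the fatty acid epoxides that P450 enzymes make, averaged 685 ± 90 CPM in weight loss, 396.5 ± 45 CPM in obese and 610 ± 156 CPM in lean fat. Its log2 value was -0.62 ± 0.16 for obese against lean (adjusted p = 0.0241) and 0.79 ± 0.17 for weight loss against obese fat (adjusted p = 0.0254). Gstt1, a glutathione transferase, was lower in obese than in lean fat by -0.70 ± 0.12 and higher after weight loss than in obese fat by 0.58 ± 0.13. Gsta4, a glutathione transferase for lipid aldehydes, was lower in obese than in lean fat (-0.83 ± 0.21). Of 4 tested flavin monooxygenases, which oxidise many of the same compounds, Fmo1 was lower in obese than in lean fat (-0.88 ± 0.17, adjusted p = 0.00547) and Fmo5 was higher after weight loss than in obese fat (0.71 ± 0.11, adjusted p = 0.00386).

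Of 11 tested retinoid genes Dhrs3, a retinaldehyde reductase, was higher in obese than in lean fat (0.43 ± 0.10, adjusted p = 0.0185). Of 4 tested genes of oxysterol and bile acid synthesis outside the family, Hsd3b7 was lower in obese than in lean fat (-0.34 ± 0.10, adjusted p = 0.0481) and higher after weight loss than in obese fat (0.57 ± 0.11, adjusted p = 0.0148). Tbxas1 and Ptgis, prostanoid synthases of the P450 fold, did not pass edgeR in any comparison. The lists held 10, 7, 14, 14, 4, 11, 4 and 2 tested genes, in the order described. In all, 11 of these genes passed in obese against lean fat, 5 in weight loss against obese fat and none in weight loss against lean fat. Of all tested genes 9.71%, 1.62% and 0.0329% passed in the same order. The count of 11 was 4 without obese replicate 1 or obese replicate 4, 5 without obese replicate 2 or lean replicate 4 and 7 without lean replicate 5. The count of 5 was 3 without obese replicate 1, 2, 4 or 5 or weight loss replicate 3 or 4. With the epididymal level as a covariate the counts were 2 and 0, and leaving out the libraries highest in epididymal markers made both 0. The shares of all genes that passed in these fits are not given here.

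When obese replicates 2, 4 and 5 and lean replicate 1 were dropped for their epididymal markers, 2 obese libraries were left, and Cyp4v3 and Cyp1a1 passed in obese against lean fat. Both obese libraries left had 0 counts of Cyp1a1. The log2 values of Cyp2e1, Cyp2f2 and Cyp2d22 were then -1.54, -4.45 and -0.52, with edgeR adjusted p of 0.0716, 0.116 and 0.173. With the epididymal level as a covariate Cyp2e1, Cyp2f2, Cyp2d22 and Cyp4v3 passed in obese against lean fat. Cyp1a1 then stood at -3.9 ± 1.17 (edgeR adjusted p = 0.079) and Cyp4f13 at -0.50 ± 0.15 (edgeR adjusted p = 0.0822). Cyp4f17 stood at -0.79 ± 0.32 (edgeR adjusted p = 0.193).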

How the data were processed

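The authors deposited expected counts, without normalization, for each Entrez gene, and 34.8% of the values were not whole. The build was mm10, per the submitters' processing notes. The aligner and counting tool are not given in these sources. Its 36172 lines covered 35794 IDs, and lines of 1 ID were summed. Symbols came from RefSeq (GRCm38.p6) for 32919 IDs and GENCODE M21 for 24. Counts were rounded to whole numbers. Libraries under 1000000 counts were left out.

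Genes were kept by filterByExpr (15208) and fitted with edgeR 4.0.16 in R 4.3.3 (TMM, 1 model of 3 groups, glmQLFit, glmQLFTest). Standard errors were obtained from the log2 fold change and its F statistic (size divided by the root of F). CPM per kilobase used the merged exon length in GENCODE M21. The test was checked on simulated counts. Figures were made with matplotlib 3.10.9.

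Members and lists were chosen with earlier results of these data known. Genes named are all that passed, the 10 highest by CPM, a fixed list of 14 P450 symbols, and up to 4 called genes of each other list. A few further genes (Cyp17a1, Cyp2j13, Cyp4a12a, Cyp2j5, Cyp4f14, Cyp26a1, Cyp4a32, Cyp2d9, Cyp21a1, Cyp20a1, Por, Ahr, Arnt, Ahrr, Tiparp, Nqo1, Tbxas1, Ptgis, Cyp46a1, Lep and Cfd) were named after their values were seen. A called gene of the epoxide and conjugation list is not reported here. Replicates may share sources that the labels do not give, so p-values measure the spread between these libraries.

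The alternatives tried were scaling by upper quartile, library size or DESeq2 size factors, a filter of 1 CPM in 5 libraries or none, DESeq2 1.42.0, limma 3.58.1 (voom, with and without quality weights), robust dispersion, legacy=FALSE, only the groups compared, the replicate block, a threshold of 0.01, each library left out, and the epididymal level.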

Additional observations from a re-analysis of the deposited data

Results flagged for a closer look

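The CPM of each of 18 named P450 genes in each group gave 54 sets of libraries. In 4 of them a library stood apart from the rest by more than Dixon's 95% value. Chance alone flags about 1 in 20 sets of normally distributed values. CPM of genes with few counts need not be normal, so that rate may not hold here. Cyp11a1 stood at 2.99 CPM in obese replicate 1, with the next obese library at 0.977 CPM, and at 12.8 CPM in lean replicate 5, with the next lean library at 2.32 CPM. Cyp1a1 stood at 0.838 CPM in obese replicate 4, with the next obese library at 0.174 CPM, and Cyp4f16 at 39.1 CPM in obese replicate 5, with the next at 31.4 CPM.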

How the results depend on the processing

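The 7 P450 calls of obese against lean fat were 4 at a threshold of 0.01 and 4 with the epididymal level as a covariate, and 2 once the 4 libraries highest in epididymal markers were dropped. They numbered 5 to 8 when 1 library was left out. The 1 call of weight loss against obese fat was 4 with DESeq2, 2 with limma-voom with quality weights and 0 under both epididymal alternatives, and 1 to 2 when 1 library was left out (2 without weight loss replicate 1). The count of 0 in weight loss against lean fat was 3 with DESeq2, 1 with legacy=FALSE, and 0 to 2 when 1 library was left out (2 without weight loss replicate 4). Cyp1a1, kept through the lean libraries, was among the 3 with DESeq2 and was the 1 with legacy=FALSE. No called P450 gene changed sign in any alternative. Of the other metabolism genes 11 passed in obese against lean fat, and 19 with DESeq2, 2 at 0.01, 2 with the covariate, 0 without the 4 libraries and 4 to 13 when 1 library was left out. The 5 of weight loss against obese fat were 1 at 0.01, 0 with the covariate, 0 without the 4 libraries and 3 to 5 when 1 library was left out. The causes were not tested, and the share of all genes that passed under each alternative is not given here. These counts therefore do not show whether an alternative called more or fewer genes in general. Deviations of same-numbered libraries had correlations from -0.54 to 0.49. These were not compared with differently numbered libraries, so they cannot decide whether the numbers in the titles pair the samples. With the replicate block the P450 calls were 7, 1 and 0. Cyp1a1 rests on 127 counts or fewer in each library.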
